A study of Mus musculus with 4 samples.

Results

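Collagens are the triple-helical proteins that make up most of the fibrous extracellular matrix, and the genes described here are those that encode their chains. All symbols of the form Col, a number, a and a number were taken from the gene list of the count matrices, which gave 44 of the 31053 genes listed. Of these, 31 had at least 20 unique molecular identifiers (UMIs, 1 per captured RNA molecule) over the 4 libraries and were kept as members. The members with the fewest UMIs were Col17a1 and Col20a1, with 26 each, and the genes just under the limit were Col9a3 with 13 and Col24a1 with 10. Of the 13 genes left out, 3 had no UMI in any library (Col2a1, Col9a1 and Col22a1). The members comprise 9 fibrillar chains, 6 chains of basement membrane collagens, 4 fibril-associated (FACIT) chains, 5 chains of type VI and 7 others. The 44 genes had 88471 UMIs over all cells.

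The study asked what D-CAN, a peptide of D-amino acids that homes to adipose stromal cells (ASC) and is described as depleting them, does to the cells of a tumor and of fat. Mice, whose genotype the labels spell VFB and the paper gives as the FVB strain, were fed chow and carried subcutaneous grafts of MycCaP, a cell line from prostate tumors of HiMyc mice. Single-cell libraries (10x Chromium 3′) were made from tumor suspensions and from stromal/vascular cells of subcutaneous adipose tissue (SAT), with 1 library each for control (PBS) and D-CAN, which gives 4 groups of 1 library. All groups share the graft, the strain and the diet, the number of mice behind a library and their age are not stated, and the grafted cells, being 1 line, stand for no other tumor.

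Collagen chains assemble in threes in the endoplasmic reticulum, after hydroxylation of prolines and lysines, and are cut and cross-linked outside the cell. Fibrillar types I, III and V form the tensile fibrils of connective tissue and are made above all by fibroblasts. Type IV, with α1 and α2 chains from Col4a1 and Col4a2, forms the network of basement membranes around vessels, fat cells and epithelia, and types XV and XVIII lie next to it. FACIT types XII and XIV sit on fibril surfaces, and type VI forms beaded filaments between fibrils and basement membranes. In adipose tissue and in tumors the fibroblasts, the mural cells (pericytes and smooth muscle of vessels) and the endothelial cells are the usual sources.

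The libraries held 6667064 to 17996284 UMIs in 1525 to 2851 cells, and the median depth per cell was 3497 UMIs in tumor control, 4855 in tumor D-CAN, 1700 in SAT control and 2920 in SAT D-CAN. Cells were gated on lists of 10 marker genes per class, none of them a collagen: a cell needed UMIs of at least 2 markers of a class, and its marker count had to be at least 2 times that of any other class. This gave 91, 62, 218 and 72 fibroblast-gated cells (in the order tumor control, tumor D-CAN, SAT control, SAT D-CAN, used throughout), 60, 27, 41 and 37 mural-gated cells and 94, 60, 470 and 154 endothelial-gated cells. All 10 markers of its own list were found in each of these classes in every library. The median depths in fibroblast-gated cells were 4033, 7770.5, 980 and 5683 UMIs, so SAT control stood apart as the shallowest. The leukocyte list summed to 285 counts per 1 M UMIs (CPM) in fibroblast-gated cells of SAT control, against 38.7 to 49.4 CPM in the other libraries. No more than 2 cell barcodes were shared by any pair of libraries.

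Collagen RNA lay mainly in the stromal gates. Collagen genes took 4.005%, 3.44%, 3.18% and 2.47% of the UMIs of fibroblast-gated cells, 1.70%, 2.40%, 0.316% and 0.270% of those of mural-gated cells and 0.557%, 0.503%, 0.152% and 0.150% of those of endothelial-gated cells. The 3 classes together held 74.6%, 78.8%, 87.9% and 94.3% of the collagen UMIs of a library. A further 19.99%, 18.6%, 9.67% and 4.09% lay in cells outside every gate, and most of these UMIs were in cells with markers of more than 1 class. UMIs were read from the 3′ ends of transcripts, so levels were compared between classes and libraries for the same gene, and ratios between genes were compared only across samples.

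**Figure D1:**
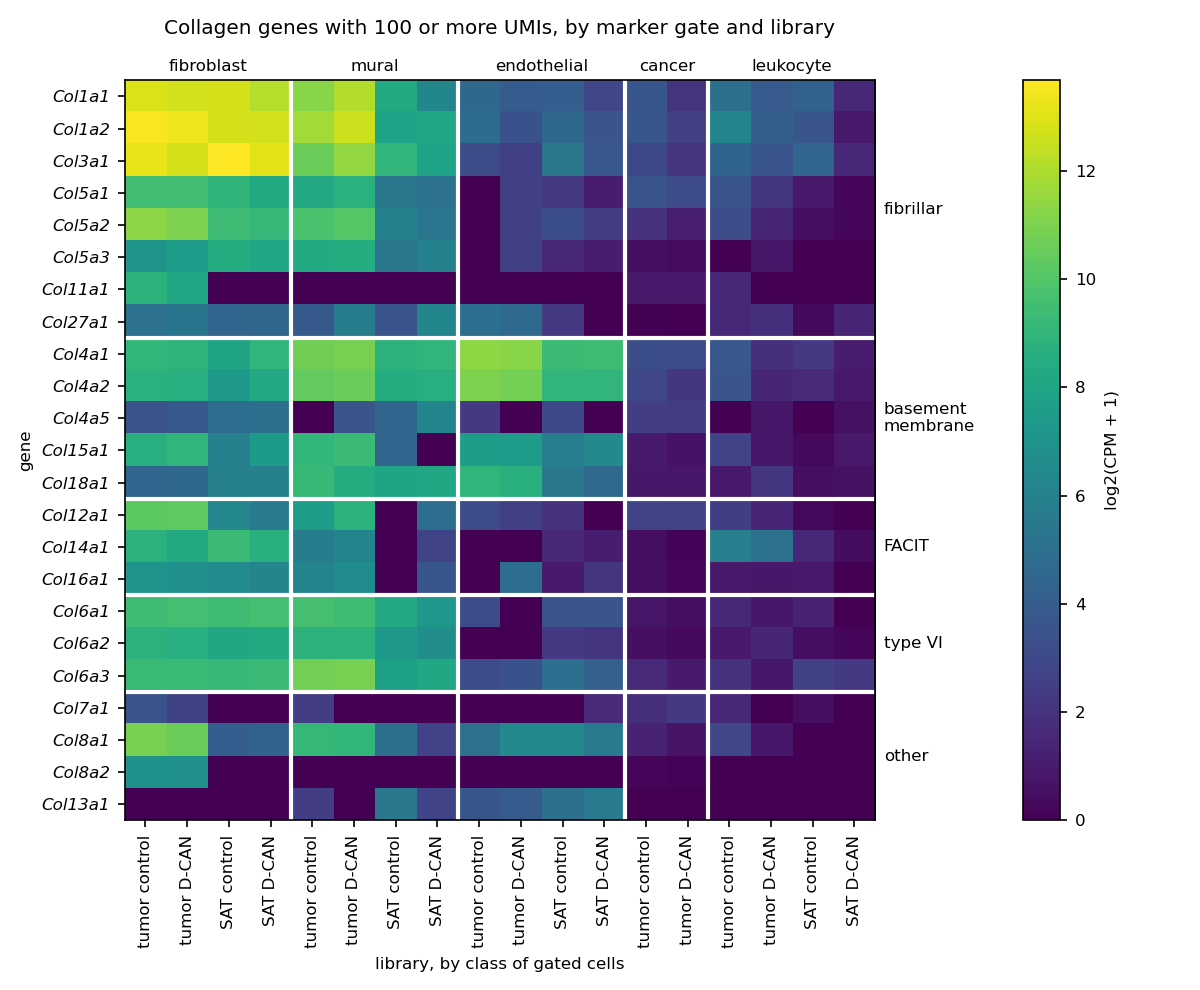
Level of each named collagen gene (rows, those with at least 100 UMIs) by class of gated cells and library (columns), as CPM on a log colour scale. Fibroblast-, mural-, endothelial- and leukocyte-gated cells are shown for all 4 libraries, and cancer-gated cells for the tumor libraries. In every library Col1a1, Col1a2, Col3a1, Col5a1 and Col5a2 are highest in fibroblast-gated cells and Col4a1 and Col4a2 in endothelial-gated cells, Col5a3 is highest in mural-gated cells in tumor, and Col8a1, Col11a1 and Col12a1 are high in tumor but not in SAT fibroblast-gated cells.

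The type IV pair is shown by sequence first because both genes start from the same stretch of DNA and had close ratios in the vessel classes. Col4a1 (ENSMUSG00000031502) lies on chromosome 8 of GRCm38 from 11198423 to 11312826 on the minus strand, and Col4a2 (ENSMUSG00000031503) from 11312805 to 11449287 on the plus strand, so their 5′ ends overlap by 22 bases. Their RefSeq promoter windows (250 bases before to 50 after the start, GRCm38.p6, each written 5′ to 3′ on its gene's strand) are chr8:11312555-11312854 (+) for Col4a2 and chr8:11312777-11313076 (-) for Col4a1, and share the 78 bases of chr8:11312777-11312854, in capitals:
Col4a2: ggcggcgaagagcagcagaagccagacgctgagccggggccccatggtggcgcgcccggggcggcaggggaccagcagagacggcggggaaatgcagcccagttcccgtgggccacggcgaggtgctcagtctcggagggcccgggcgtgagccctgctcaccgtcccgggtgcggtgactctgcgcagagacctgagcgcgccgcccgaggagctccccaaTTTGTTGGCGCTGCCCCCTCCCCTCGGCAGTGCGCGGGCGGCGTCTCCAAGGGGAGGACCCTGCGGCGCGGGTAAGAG
Col4a1: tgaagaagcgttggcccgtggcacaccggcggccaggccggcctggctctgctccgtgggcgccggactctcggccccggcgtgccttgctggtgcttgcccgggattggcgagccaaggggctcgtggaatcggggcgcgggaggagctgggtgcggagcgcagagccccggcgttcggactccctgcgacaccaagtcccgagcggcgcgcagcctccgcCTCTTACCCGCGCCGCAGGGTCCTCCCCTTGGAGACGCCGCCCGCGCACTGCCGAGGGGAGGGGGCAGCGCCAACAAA
GC content was 73.7% and 74.0% in these windows, against a median of 52.7% over 32851 windows of the same length. For comparison, the windows of a pair of fibrillar genes are given, with matches to CCAAT and TATAAA on either strand in capitals, at chr6:4505368-4505667 (+) for Col1a2 and chr1:45311288-45311587 (+) for Col3a1:
Col1a2: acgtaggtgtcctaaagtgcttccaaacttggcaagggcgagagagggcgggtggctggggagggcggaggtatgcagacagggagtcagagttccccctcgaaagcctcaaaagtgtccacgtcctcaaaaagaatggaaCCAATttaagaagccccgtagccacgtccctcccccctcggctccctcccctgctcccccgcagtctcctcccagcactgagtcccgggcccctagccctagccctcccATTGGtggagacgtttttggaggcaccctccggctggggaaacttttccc
Col3a1: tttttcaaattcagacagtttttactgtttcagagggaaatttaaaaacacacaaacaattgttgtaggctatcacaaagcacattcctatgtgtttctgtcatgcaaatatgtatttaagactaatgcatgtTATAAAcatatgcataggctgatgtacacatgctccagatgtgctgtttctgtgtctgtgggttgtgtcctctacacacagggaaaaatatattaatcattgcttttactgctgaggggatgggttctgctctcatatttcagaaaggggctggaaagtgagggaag
Of the 31 members, 27 had a window. CCAAT (or ATTGG) was found in 10 of them, Col4a1 and Col4a2 included, and in 37.4% of all windows. TATAAA (or TTTATA) was found in 5 members and in 13.6% of all windows, and GGGCGG (or CCGCCC) in 18 members and in 35.7% of all windows. Such matches describe the letters of the window only. The Col1a2 window, placed by its RefSeq start, lies inside the gene as GENCODE positions it, from 4504814.

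The ratio of Col4a1 to Col4a2 UMIs was 1.23 and 1.37 in tumor endothelial-gated cells (control and D-CAN), 1.23 and 1.37 in SAT endothelial-gated cells, 1.27 and 1.18 in tumor mural-gated cells and 1.26 and 1.28 in SAT mural-gated cells. The lowest and highest of these 8 values had overlapping 95% counting intervals (1.01 to 1.39 and 1.22 to 1.55). In fibroblast-gated cells the ratio was 1.25, 1.24, 1.56 and 1.73. The pair thus had close proportions over the vessel classes, although its level differed between them.

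In fibroblast-gated cells, tumor and SAT shared the main fibrillar genes but differed in a set of less abundant chains. Of the 31 members, 24 had at least 20 UMIs over the 4 sums and were tested, and 7 of these were higher and 2 lower in tumor (edgeR quasi-likelihood test with Benjamini-Hochberg adjustment, adjusted p under 0.05). Over the 7864 genes tested, 7.85% were higher and 8.2% lower. Of the members, 16 reached 20 UMIs in each tissue, and 4 of these were higher and 2 lower, where 7.79% and 8.51% of such genes were. The remaining 3 called higher (Col8a1, Col8a2 and Col11a1) reached 20 UMIs in tumor alone and so entered the test through tumor. The median log2 difference was 0.31 for the 16 members and -0.01 for the genes with 20 UMIs in each tissue. Each tissue has 2 libraries that differ in treatment, so a treatment difference adds to the spread within a tissue, and the p-values measure only the spread between these libraries. The summed level of the fibroblast markers was also lower in the tumor gate, at 8756 and 7137 CPM against 21284 and 28878 CPM in SAT, and the part of this difference in the results was not tested.

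Among the fibrillar genes, Col1a2 (ENSMUSG00000029661, chromosome 6 from 4504814 to 4541544), the α2 chain of type I, was at 12045 and 10516 CPM in tumor control and D-CAN and at 7016 and 6797 CPM in SAT control and D-CAN. Both tumor libraries were above both SAT libraries, with a log2 difference of 0.62 ± 0.17 (SE, n = 2 libraries per tissue; adjusted p = 0.0366 by edgeR's quasi-likelihood test). This call was lost in 7 of 15 alternative settings. Its partner Col1a1 (ENSMUSG00000001506, chromosome 11 from 94936224 to 94953042) was at 7700, 6857, 7096 and 4498 CPM. The tissues overlapped, and the difference of 0.24 ± 0.22 did not pass the test. Col3a1 (ENSMUSG00000026043, chromosome 1 from 45311538 to 45349706), which encodes type III, was at 9467, 7141, 13070 and 8736 CPM, also with overlap (-0.48 ± 0.23, adjusted p = 0.188 in the same edgeR test). The ratio of Col1a1 to Col1a2 UMIs was 0.64, 0.65 and 0.66 in tumor control, tumor D-CAN and SAT D-CAN, but 1.01 (0.96 to 1.06) in SAT control, where the type I chains thus differed in proportion from the other 3 libraries.

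Of the minor fibrillar chains, some separated the tissues and others did not. Col5a2, a type V chain that co-assembles with type I and lies 24614 bases from Col3a1 on the opposite strand, was at 2490, 2039, 659 and 544 CPM (log2 difference 1.82 ± 0.21, adjusted p = 2.78e-04 by edgeR). Col5a1, its partner, was at 723, 726, 487 and 316 CPM and did not pass (0.76 ± 0.24, adjusted p = 0.0522 in the edgeR test), although it was called higher in 4 of 15 alternative settings. Col5a3, the third type V chain, went the other way, with 133, 184, 351 and 257 CPM (-1.02 ± 0.25, adjusted p = 0.0214 by edgeR). Without either tumor library the call of Col5a3 was lost, as it was under DESeq2. The ratio of Col5a1 to Col5a2 UMIs was 0.29 and 0.36 in tumor and 0.74 and 0.58 in SAT, so the makeup of the type V transcripts differed between the tissues.

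Col11a1 (ENSMUSG00000027966, chromosome 3 from 114030540 to 114220718), a chain best known from cartilage that joins type V in fibrils, had 176 and 140 UMIs in tumor fibroblast-gated cells, or 458 and 258 CPM, and none in those of SAT. Against 3 UMIs over both SAT libraries this was 95.9-fold higher in tumor. Only 1 UMI of Col11a1 was found in SAT in any cell. Col27a1, another fibrillar chain, was low everywhere, at 33.8, 38.7, 20.7 and 22.1 CPM in fibroblast-gated cells.

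Type VIII, a short-chain collagen that forms networks in vessel walls and the cornea, gave the widest separation with counts on both sides. Col8a1 (ENSMUSG00000068196, chromosome 16 from 57624258 to 57754737) was at 1884 and 1574 CPM in tumor and at 16.1 and 19.6 CPM in SAT fibroblast-gated cells, from 7 and 8 UMIs (log2 difference 6.49 ± 0.29, adjusted p = 1.18e-06 by edgeR). Col8a2, its partner chain, was at 130 and 118 CPM in tumor and had no UMI in any SAT cell, which makes it at least 34.6-fold higher in the tumor gate. The ratio of Col8a1 to Col8a2 UMIs was 14.5 and 13.3 in tumor fibroblast-gated cells. Col8a1 was not tied to fibroblasts in SAT, where 64.5% of its UMIs lay in endothelial-gated cells, at 86.1 and 50.7 CPM. There 11.5% and 16.2% of cells had a UMI of it. Among the cells with at least 1000 UMIs, each thinned to 1000, the shares were 8.17% and 4.29%. Cells with fewer UMIs were left out of thinned shares. No SAT leukocyte-gated cell had a UMI of it (0 of 1387 and 1404 thinned cells, which allows shares of up to 0.216% and 0.214% for cells with a UMI at that depth, not for cells that express the gene).

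Of the 3 FACIT genes tested in fibroblast-gated cells, Col12a1 was called. Col12a1 (ENSMUSG00000032332, chromosome 9 from 79598991 to 79718831) was at 1215 and 1274 CPM in tumor against 78.1 and 51.5 CPM in SAT fibroblast-gated cells (log2 difference 4.16 ± 0.26, adjusted p = 1.11e-05 by edgeR). Col14a1 was at 445, 321, 636 and 404 CPM, with the highest tumor value above the lowest SAT value, and did not pass (-0.54 ± 0.26, adjusted p = 0.21 by edgeR). Col16a1 was at 133, 118, 94.1 and 73.5 CPM and did not pass either. Col20a1, the remaining FACIT member, had 15 of its 19 tumor UMIs in cancer-gated cells, a gate that held 76.7% of all tumor UMIs.

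Basement membrane genes were mixed in fibroblast-gated cells. Col15a1 (ENSMUSG00000028339, chromosome 4 from 47208161 to 47313167) was at 393, 514, 62.0 and 172 CPM (1.87 ± 0.38, adjusted p = 0.0079 by edgeR), and Col18a1 (ENSMUSG00000001435, chromosome 10 from 77052178 to 77166548), whose C-terminal fragment is endostatin, was lower in tumor, at 20.8, 24.0, 62.0 and 61.3 CPM (-1.53 ± 0.34, adjusted p = 0.0126 by edgeR). Both calls were lost without either tumor library. They were also lost in cells with no marker UMI of another stromal class, and the call of Col18a1 was lost under DESeq2. Col4a1 was at 526, 472, 250 and 517 CPM and Col4a2 at 422, 382, 161 and 299 CPM, and neither passed. Col4a5 was at 10.4, 12.9, 29.8 and 31.9 CPM (adjusted p = 0.0623 by edgeR).

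None of the 5 type VI genes passed the test between the tissues in fibroblast-gated cells, and Col6a1, Col6a2 and Col6a3 had close values in all 4 libraries. Col6a1 was at 697, 759, 686 and 757 CPM, Col6a2 at 437, 393, 296 and 319 CPM and Col6a3 at 598, 605, 565 and 650 CPM. Their log2 differences were -0.08 ± 0.20, 0.34 ± 0.21 and -0.11 ± 0.20. The spread of the summed type VI level over the 4 libraries was from 1648 to 1782 CPM. Col6a6 was at 18.2, 5.53, 57.4 and 19.6 CPM, without overlap of the tissues (-1.89, adjusted p = 0.0813 by edgeR), and was called lower in tumor in 3 of 15 alternative settings, among them treatment as a covariate and the fit without SAT D-CAN. Col6a5 and Col6a6, the low members of the type, had 57 and 55 UMIs in all, most of them in fibroblast-gated cells of both tissues.

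**Figure D2:**
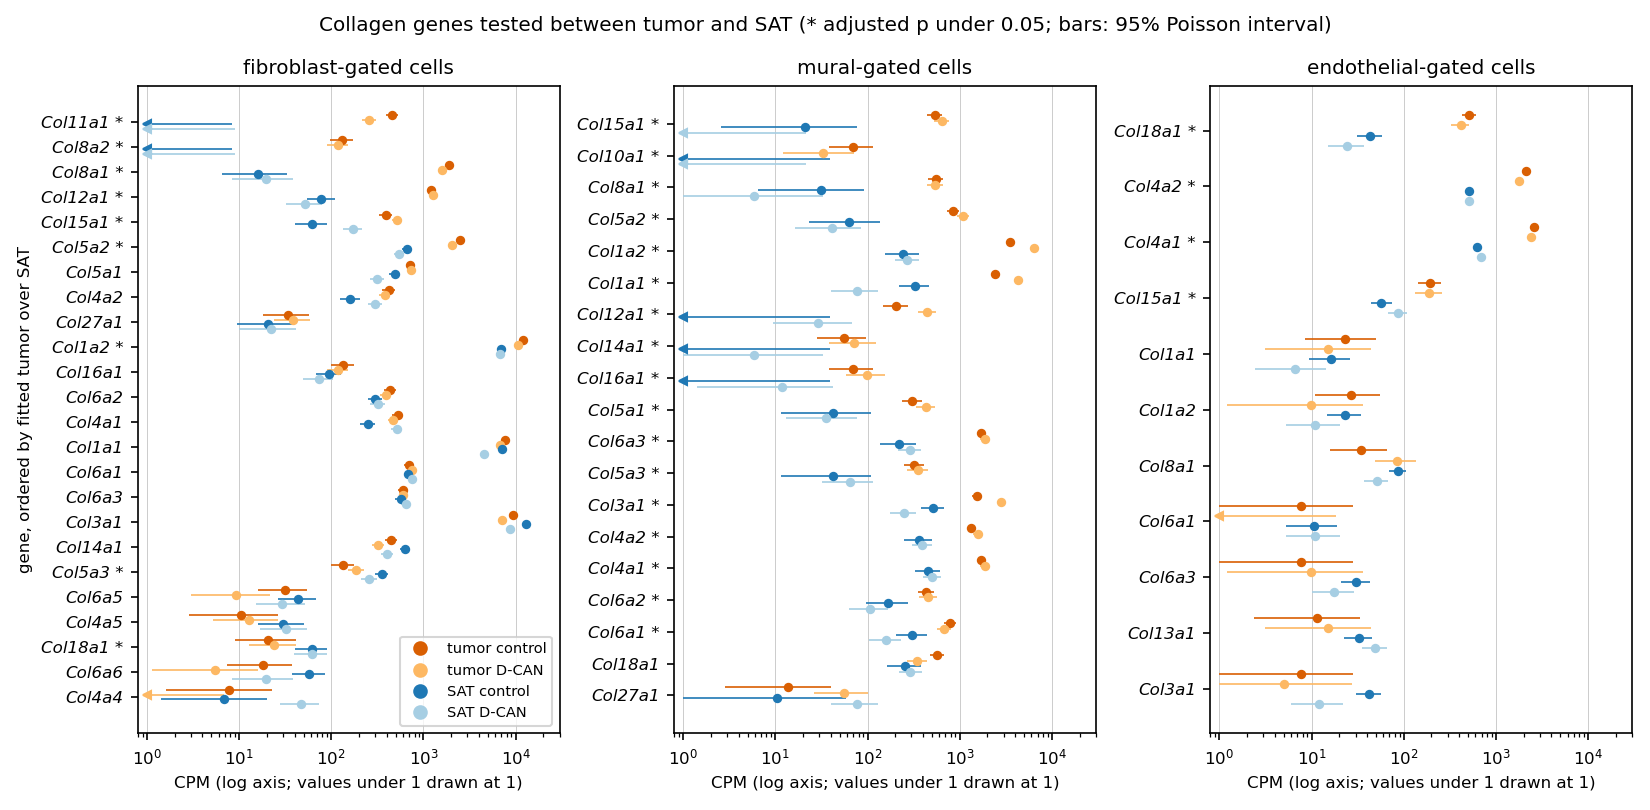
CPM (log axis) of each collagen gene tested in fibroblast-, mural- and endothelial-gated cells (panels), 1 point per library with its exact 95% Poisson interval; triangles at the left edge mark libraries with no UMI, and asterisks the genes with adjusted p under 0.05. In the mural panel the tumor points lie to the right of the SAT points for all 17 genes called, and in the fibroblast panel Col8a1, Col8a2, Col11a1 and Col12a1 lie farthest apart.

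In mural-gated cells most collagens with enough UMIs for a test were higher in tumor. Of 19 members tested, 17 were higher and none lower by the edgeR test, where 11.4% of the 4871 genes tested were higher and 12% lower, and the exceptions were Col18a1 and Col27a1. Of the 17, 9 reached 20 UMIs in tumor alone (Col5a1, Col5a2, Col5a3, Col8a1, Col10a1, Col12a1, Col14a1, Col15a1 and Col16a1), so they entered the test through the tissue where they are high. Of the 9 members with 20 UMIs in each tissue, 8 were higher, where 11.6% of the 1782 such genes were higher and 12.5% lower, with a median log2 difference of 1.96 against -0.07.

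Type I led in tumor mural-gated cells. Col1a2 was at 3534 and 6364 CPM in tumor and 242 and 269 CPM in SAT (4.27 ± 0.32, adjusted p = 1.43e-09 by edgeR), and Col1a1 at 2433 and 4308 CPM against 326 and 76.1 CPM (4.23 ± 0.42, adjusted p = 1.13e-07 by edgeR). Col3a1 was at 1539 and 2810 CPM against 516 and 246 CPM (2.58 ± 0.34). No tumor value overlapped a SAT value for these genes. In SAT control, however, 1 cell held 61.2% of the 49 Col3a1 UMIs and 32.3% of the 31 Col1a1 UMIs. Of the type V chains, Col5a1 was at 304, 430, 42.1 and 35.1 CPM in tumor control, tumor D-CAN, SAT control and SAT D-CAN (3.26 ± 0.42), Col5a2 at 852, 1091, 63.2 and 41.0 CPM (4.29 ± 0.37) and, in the same order, Col5a3 at 322, 353, 42.1 and 64.4 CPM (2.59 ± 0.38). Col27a1 was at 13.8, 55.1, 10.5 and 76.1 CPM, with overlap between the tissues.

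The FACIT genes were low in SAT mural-gated cells. Col12a1 was at 203 and 441 CPM in tumor and had no UMI in SAT control and 5 in SAT D-CAN (4.05 ± 0.59, adjusted p = 1.78e-05 by edgeR). Col14a1 had 12 and 13 UMIs in tumor and none and 1 in SAT, a ratio of 16.7 (counting interval 2.73 to 684). Col16a1 had 15 and 18 UMIs against none and 2, a ratio of 11 (2.81 to 94.6). The calls of Col14a1 and Col16a1 were lost under DESeq2. Both genes fell under the 20-UMI filter without tumor D-CAN, as Col14a1 did without tumor control.

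The type IV chains were higher in tumor mural-gated cells by smaller folds than type I. Col4a1 was at 1695 and 1862 CPM against 453 and 504 CPM (1.90 ± 0.26, adjusted p = 6.90e-06 by edgeR) and Col4a2 at 1336 and 1576 CPM against 358 and 392 CPM (1.96 ± 0.27). Col18a1 was at 571 and 347 CPM against 253 and 293 CPM and did not pass (0.75 ± 0.30, adjusted p = 0.0689 by edgeR). Col15a1 was at 539 and 639 CPM in tumor but had 2 UMIs and none in SAT, a ratio of 77.7 with a 95% counting interval of 21.3 to 645.

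Type VI, a large part of mural collagen, was also higher. Col6a3 was at 1718 and 1862 CPM in tumor against 221 and 287 CPM in SAT (2.80 ± 0.28, adjusted p = 1.19e-07 by edgeR), and in tumor the mural gate held more of its UMIs than any other gate, 38.6%. Col6a1 was at 783 and 678 CPM against 305 and 158 CPM (1.74 ± 0.31) and Col6a2 at 433 and 452 CPM against 168 and 105 CPM (1.77 ± 0.32). Col8a1 was at 548 and 540 CPM against 31.6 and 5.85 CPM, without any UMI of Col8a2 in either tumor library's mural-gated cells, so among the stromal gates of tumor Col8a2 was found in fibroblast-gated cells alone. Col10a1, a short-chain collagen of growth plate cartilage, had 21 of its 33 UMIs in tumor mural-gated cells and none in SAT, 4.67-fold higher against a SAT count of 3 UMIs. Its call was lost under DESeq2 and without SAT D-CAN, and without either tumor library it was under the 20-UMI filter.

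The part of fibroblast RNA in these values was not tested, and the level of the fibroblast markers is given beside them. The 10 markers summed to 696 and 518 CPM in tumor mural-gated cells and to 390 and 404 CPM in those of SAT, against 8756 and 7137 CPM in tumor fibroblast-gated cells. Of the 10, 8 and 6 had a UMI in the mural-gated cells of tumor control and tumor D-CAN, and 4 and 6 in those of SAT. Pdgfra and Lum were the ones without a UMI in tumor control. Mural-gated cells that carried no UMI of any fibroblast or endothelial marker numbered 11, 4, 17 and 16. In these few cells Col1a1 was at 2078 and 3063 CPM and Col1a2 at 2720 and 3650 CPM in tumor, and in those of SAT 0 and 2 UMIs of Col1a1 and 1 and 2 of Col1a2 were counted. Of the 17 genes called in the mural gate, 6 were called there: Col1a1, Col1a2, Col3a1, Col5a2, Col6a3 and Col8a1. All 6 reached 20 UMIs in tumor alone, where 85.7% of the 42 such genes were higher and none lower. These calls thus do not set the collagens apart. Of the 3 members with 20 UMIs in each tissue none was called, where 8.19% of the 232 such genes were higher and 2.16% lower. Col4a1 (945 and 1043 CPM against 287 and 489 CPM) and Col4a2 (604 and 1434 CPM against 319 and 339 CPM) were tested and not called. The others, Col6a1, Col6a2, Col12a1 and Col15a1 among them, fell under the 20-UMI filter. The Col3a1 to Col1a1 ratio was 0.63 and 0.65 in tumor mural-gated and 1.23 and 1.04 in tumor fibroblast-gated cells. The fibroblast-gated cells with a UMI of Acta2, a gene that mural cells share, were closer to the mural gate, with 1747 Col3a1 and 2334 Col1a1 UMIs in tumor control and 1869 and 2757 in tumor D-CAN.

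**Figure D3:**
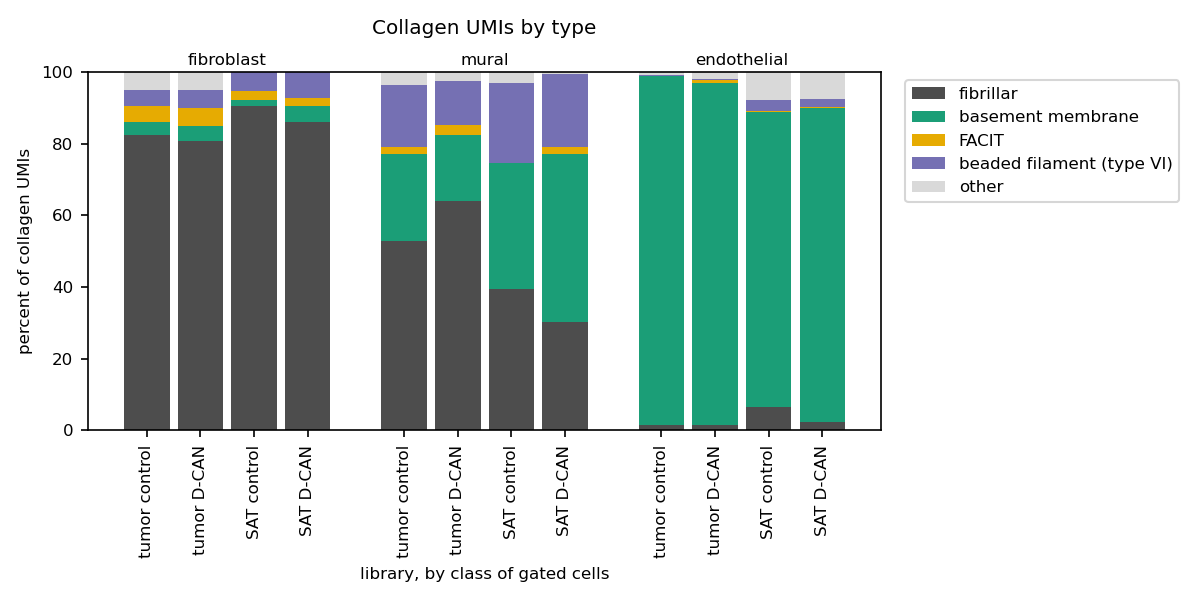
Share of collagen UMIs by collagen type (stacked bars, percent) in fibroblast-, mural- and endothelial-gated cells of the 4 libraries. Fibrillar genes take 80.8% to 90.4% in fibroblast-gated cells, basement membrane genes 82.2% to 97.2% in endothelial-gated cells, and mural-gated cells change from 39.5% and 30.2% fibrillar in SAT to 52.8% and 64.1% in tumor.

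Endothelial collagen was almost wholly of basement membrane types. These took 97.2% and 95.6% of endothelial collagen UMIs in tumor and 82.2% and 87.4% in SAT. Of 11 members tested, 4 were higher in tumor and none lower by the edgeR test, all 4 of basement membrane type, where 6.35% of the 8777 genes tested were higher and 5.9% lower. The 4 are among the 5 members with 20 UMIs in each tissue, where 12.6% of such genes were higher and 7.35% lower, and the other 6 reached 20 UMIs in SAT alone. The median log2 difference was 1.91 for the 5 members and 0.17 for the genes with 20 UMIs in each tissue. Over all 11 members tested it was 0.15, against -0.04 for all genes, and for the 6 that entered through SAT it was -1.39. The 7 members tested and not called were fibrillar, type VI or other genes.

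Col4a1 was at 2589 and 2428 CPM in tumor and 628 and 693 CPM in SAT endothelial-gated cells (1.91 ± 0.16, adjusted p = 3.56e-06 by edgeR), and Col4a2 at 2111 and 1775 CPM against 512 and 505 CPM (1.92 ± 0.17, adjusted p = 4.50e-06 by edgeR). Among cells with at least 1000 UMIs, thinned to 1000, 82.3% and 76.6% of tumor and 46.3% and 41.4% of SAT endothelial-gated cells had a Col4a1 UMI. The shares of leukocyte-gated cells were 0.683%, 0.292%, 0.144% and 0.142%. Shallower cells were left out, and the median depth of SAT control endothelial-gated cells was 1057.5 UMIs. Without thinning the endothelial shares were 93.6%, 93.3%, 50% and 77.9%. Both tumor shares thus lay above both SAT shares among the cells thinned to equal depth.

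Col18a1 had the largest fold of the 4, at 513 and 414 CPM in tumor against 43.0 and 24.2 CPM in SAT (3.75 ± 0.26, adjusted p = 8.46e-07 by edgeR). It was lower in tumor in the fibroblast gate, as given above, and the difference between the classes was not tested. Col15a1 was at 193, 189, 57.4 and 85.9 CPM (1.41 ± 0.25, adjusted p = 0.00183 by edgeR). All 4 calls held in each of 15 alternative settings.

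No other collagen passed the test in endothelial-gated cells. Col3a1, Col6a1, Col6a3 and Col13a1 were each at higher CPM in both SAT libraries than in both tumor libraries, and reached 20 UMIs in SAT alone. Col13a1, a transmembrane collagen, had 69.6% of its SAT UMIs in endothelial-gated cells and was at 11.6, 14.96, 32.5 and 48.5 CPM (-1.62 ± 0.52, adjusted p = 0.0551 by edgeR). It was called lower in tumor in 6 of 15 alternative settings, the fit without SAT control among them, and Col3a1 in 3, the fit without SAT D-CAN among them. Both were called with treatment as a covariate. Col27a1, with 8, 5, 4 and 0 UMIs, was under the filter and was called higher in tumor in 2 settings with other filters. Col8a1 was at 34.7 and 84.8 CPM in tumor, from 9 and 17 UMIs, and at 86.1 and 50.7 CPM in SAT. Fibrillar genes stayed at or below 42.1 CPM. Leukocyte-gated cells, which should lack them, had Col1a1 at 32.2, 13.97, 18.3 and 1.97 CPM, so values of that order in the endothelial gate cannot be told from free RNA.

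The genes that process, cross-link and bind collagens were counted from a list of 51, of which 50 are in the gene list. In fibroblast-gated cells 38 were tested, with 20 higher and 4 lower in tumor by the edgeR test, where 7.85% and 8.2% of all genes were. Of the 20, P4ha3, Fmod and Itga1 reached 20 UMIs in tumor alone, where 24.3% of such genes were higher and none lower. In mural-gated cells 30 of 34 were higher and 1 lower, where 11.4% and 12% of all genes were. Of the 30, P4hb, Ppib, Serpinh1, Pcolce, Itga1, Sparc, Bgn and Nid1 reached 20 UMIs in each tissue. The others reached 20 UMIs in tumor alone, where genes were higher more often than over all genes and none was lower. In endothelial-gated cells 12 of 31 were higher and 1 lower, where 6.35% and 5.9% of all genes were. Of the 12, Loxl2 reached 20 UMIs in tumor alone, where 100% of such genes were higher, and Plod2 did so in neither tissue. The medians over the listed genes tested were 0.80, 2.25 and 0.74 on the log2 scale, beside -0.01, 0.01 and -0.04 over all genes. These medians include the genes that entered the test through tumor. In the mural gate the median over all genes that entered so was 0.89.

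In fibroblast-gated cells the prolyl and lysyl modifying enzymes made up 10 of the 20 higher genes, 6 of 9 tested prolyl and 4 of 4 lysyl. Plod2, a lysyl hydroxylase of the telopeptides, was at 219, 190, 32.1 and 19.6 CPM (2.86 ± 0.30, adjusted p = 1.58e-04 by edgeR). P4ha3, a prolyl hydroxylase subunit, had 35 and 48 UMIs in tumor and 3 and none in SAT, a ratio of 25.2 (counting interval 8.32 to 125). The cross-linking enzymes Lox and Loxl3 were higher by 2.29 ± 0.29 and 2.81 ± 0.27, and the proteoglycans Bgn and Fmod by 2.43 ± 0.23 and 3.07 ± 0.38. Itga1, a collagen receptor subunit, was higher by 3.66 ± 0.63. The genes that were lower by more than 2 on this scale were Pcolce2, an enhancer of propeptide cleavage (52.0, 68.2, 769 and 1123 CPM, -4.05 ± 0.29), Tnxb (-2.45 ± 0.30) and the collagen receptor Ddr2 (-2.32 ± 0.24).

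In mural-gated cells most of these genes were higher in tumor, as most collagens were. Fn1, which encodes fibronectin, was at 1530 and 2039 CPM in tumor and 84.2 and 11.7 CPM in SAT (5.50 ± 0.44, adjusted p = 5.53e-09 by edgeR). Adamts2, the procollagen N-proteinase, was higher by 3.43 ± 0.40 and Loxl3 by 3.52 ± 0.54. P4ha3 had 10 and 17 UMIs in tumor and none in SAT, at least 6.001-fold higher. Fn1, Adamts2, Loxl3 and P4ha3 reached the UMI limit of the test in tumor alone, so they entered it through the tissue where they are high. In endothelial-gated cells the highest folds were those of Nid2, a basement membrane linker (293, 125, 14.3 and 16.5 CPM, 3.77 ± 0.38), Loxl2 (3.14 ± 0.72), Plod2 (3.07 ± 0.66) and Fn1 (3.06 ± 0.40), and Itga1 was the gene that was lower (-1.30 ± 0.24).

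The comparison of D-CAN with control rests on 1 library per group, so it has no replicate check and no test. Values are given with exact Poisson intervals, ratios with exact conditional binomial intervals, neither of which holds the variation between mice. As a rule of size, members past 2-fold were counted in each class, leaving out those whose libraries summed to under 20 UMIs there.

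In tumor fibroblast-gated cells none of 20 members was past 2-fold, where 5.89% of all genes were. The summed fibrillar level was 33055 CPM in control and 27762 CPM in D-CAN, a log2 ratio of -0.25 (-0.29 to -0.22). Col3a1 fell short of control by more than type I, at -0.41 (-0.47 to -0.34) against -0.17 for Col1a1 and -0.20 for Col1a2. The largest ratio was that of Col11a1, -0.83 (-1.16 to -0.50), and Col15a1 was on the other side at 0.39 (0.10 to 0.68). Type VI was at 1782 and 1771 CPM and basement membrane genes at 1379 and 1405 CPM, ratios of -0.01 and 0.03 whose intervals include 0.

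In tumor mural-gated cells fibrillar genes were higher in D-CAN, at 15410 CPM against 8998 CPM, a log2 ratio of 0.78 (0.69 to 0.86). Col1a1, Col1a2 and Col3a1 had ratios of 0.82, 0.85 and 0.87. The fibroblast markers summed to 696 CPM in control and 518 CPM in D-CAN. In control 1 of these markers was found in 10% of the cells or more, and in D-CAN 4 were. The part of fibroblast RNA in these ratios was not tested. Of 18 members, 2 were past 2-fold, where 7.93% of all genes were: Col12a1, at 203 and 441 CPM, and Col10a1, at 69.1 and 33.1 CPM from 15 and 6 UMIs. Only 27 cells stand behind the D-CAN value, 1 of which held 16.9% of its Col1a1 UMIs. Col4a1 plus Col4a2 stood at 3031 and 3438 CPM (0.18, 0.02 to 0.34), and Col18a1 was at -0.72 (-1.18 to -0.27). The ratio of Col18a1 turned to 1.27 (-0.0032 to 2.60) in the 11 and 4 cells with no marker UMI of another stromal class.

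In tumor endothelial-gated cells Col4a1 plus Col4a2 were at 4700 CPM in control and 4204 CPM in D-CAN, a ratio of -0.16 (-0.29 to -0.03). With a gate that allowed fewer markers of another class it was -0.10 (-0.23 to 0.03). In graph clusters it was -0.09 (-0.20 to 0.03), so both of these intervals include 0. Of 5 members, 1 was past 2-fold, Col8a1 with 9 and 17 UMIs, where 8.41% of all genes were. Col15a1 and Col18a1 had intervals that include 0.

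In tumor cancer-gated cells, which held 76.7% of all tumor UMIs, collagens were near the floor. Of 16 members, 6 were past 2-fold, all lower in D-CAN (Col1a1, Col1a2, Col3a1, Col5a2, Col6a3 and Col8a1), where 1.91% of all genes were. Col1a1 was at 11.7 and 3.29 CPM here and at 7700 and 6857 CPM in tumor fibroblast-gated cells, and the fibroblast markers summed to 8.16 and 3.12 CPM. The part of free RNA in these values was not tested. Col5a1 was an exception to the fibroblast proportions, with 152 and 95 UMIs against 40 and 14 of Col5a2, a ratio of 3.80 and 6.79 where tumor fibroblast-gated cells had 0.29 and 0.36. Col4a5 and Col7a1, the anchoring fibril chain, had 72.0% and 68.6% of their tumor UMIs in this gate, at 4.51 and 4.22 CPM and at 2.58 and 3.97 CPM. Since the gate held 76.7% of all tumor UMIs, these shares do not set it apart.

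In SAT fibroblast-gated cells the fibrillar and basement membrane genes went opposite ways. Fibrillar genes were at 28699 CPM in control and 21170 CPM in D-CAN, a log2 ratio of -0.44 (-0.48 to -0.40), and basement membrane genes at 572 and 1127 CPM, a ratio of 0.98 (0.75 to 1.21). Of 20 members, 4 were past 2-fold, where 11.1% of all genes were: Col4a1 (250 and 517 CPM, 1.05), Col15a1 (62.0 and 172 CPM, 1.47) and Col4a4 (3 and 19 UMIs) were higher in D-CAN, and Col6a6 (25 and 8 UMIs) was lower. Col4a2 went with Col4a1, at 0.90 (0.46 to 1.34). Col1a1 was at -0.66 (-0.74 to -0.57) and Col3a1 at -0.58 (-0.64 to -0.52), while Col1a2 was at -0.05 (-0.12 to 0.03). Within D-CAN, 1 cell held 20.8% of the Col1a1 UMIs. In the fibroblast-gated cells with no marker UMI of another stromal class the direction turned for Col3a1, at 14194 CPM in control and 16380 CPM in D-CAN (0.21, 0.12 to 0.29), and for Col5a2 and Col5a3, while Col1a1 was at 9631 and 4274 CPM. Over the whole gate type VI was at 1648 and 1775 CPM, and Col14a1 at -0.65 (-0.94 to -0.37). In the cells with no other stromal marker UMI, 150 in control and 27 in D-CAN, the main type VI chains were higher in D-CAN. There Col6a1 was at 700 and 1279 CPM, Col6a2 at 372 and 626 CPM and Col6a3 at 556 and 1520 CPM. Col6a5 and Col6a6 went the other way, from few UMIs, and Col4a1 was at 239 and 1100 CPM. The median depth was 980 UMIs in control and 5683 in D-CAN cells, and the part of depth in these ratios was not tested.

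In the vessel classes of SAT the type IV pair had ratios whose intervals include 0, 0.07 (-0.05 to 0.19) in endothelial-gated and 0.14 (-0.26 to 0.56) in mural-gated cells. Of 9 members in mural-gated cells, 2 were past 2-fold, Col1a1 and Col3a1, both lower in D-CAN, where 13.6% of all genes were. Of 11 in endothelial-gated cells, 3 were past 2-fold, Col1a1, Col1a2 and Col3a1, all lower, where 4.42% of all genes were. Leukocyte-gated cells of SAT had Col3a1 at 21.0 and 1.97 CPM and Col1a1 at 18.3 and 1.97 CPM in control and D-CAN. The part of free RNA in the ratios of the vessel classes was not tested.

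**Figure D4:**
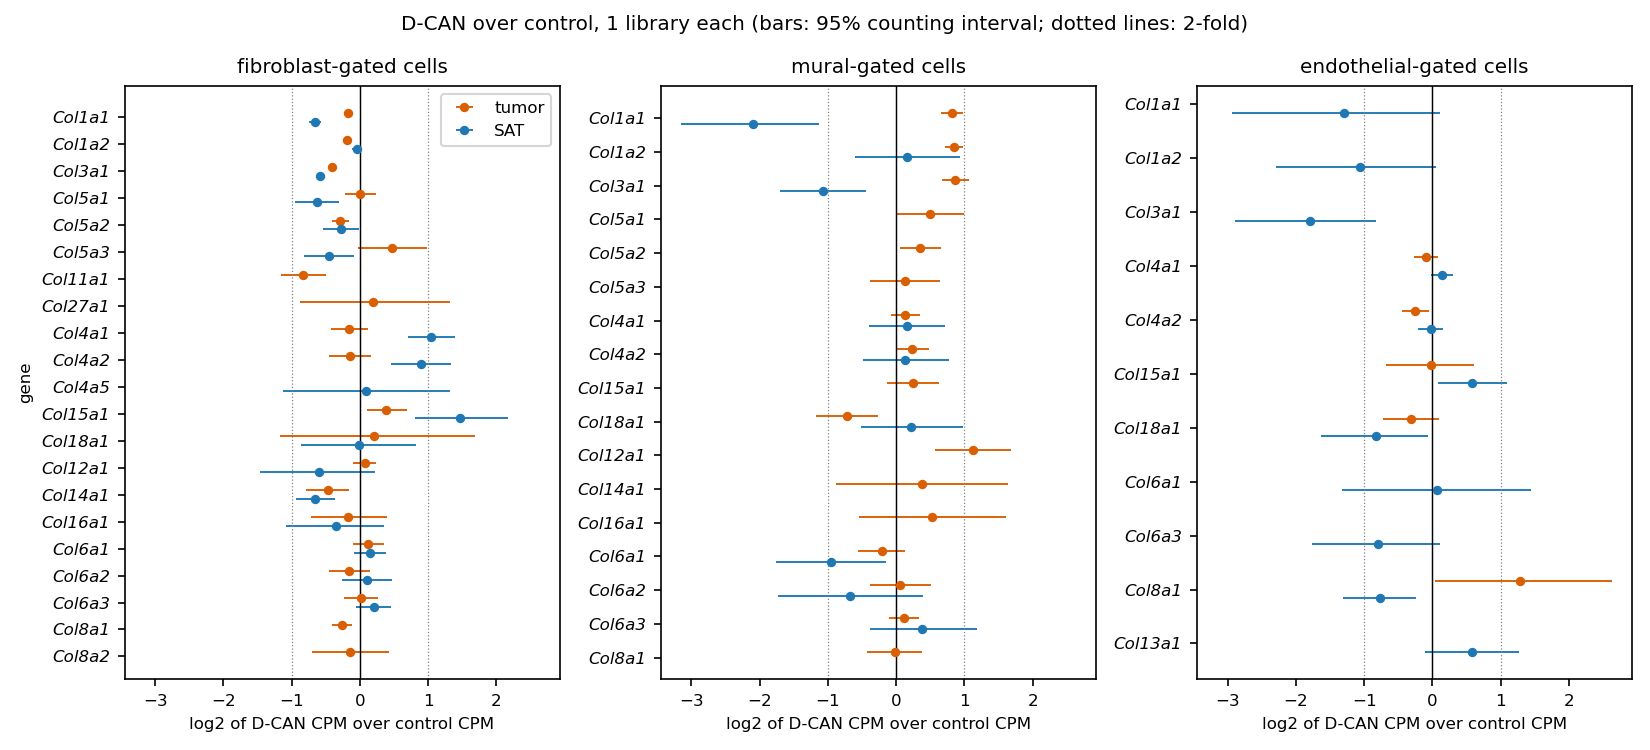
Log2 ratio of D-CAN over control for each named collagen gene that reached 20 UMIs in the pair of libraries, by class and tissue, with its exact 95% counting interval; 1 library per group, so the intervals do not hold variation between mice. Col4a1, Col4a2 and Col15a1 lie above 0 and Col1a1 and Col3a1 below 0 in SAT fibroblast-gated cells, and the fibrillar genes lie above 0 in tumor mural-gated cells.

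Splitting the fibroblast-gated cells by other genes showed how the collagens vary within the class. SAT fibroblast-gated cells were split by a UMI of Pi16 or Dpp4, genes of a progenitor-like fibroblast of fat, into 114 cells with and 104 without one in control and 35 with and 37 without one in D-CAN. A cell without a UMI may still express these genes, more so in the shallow control library. Values are given for positive against negative cells.

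Most of the abundant collagens were at higher levels in the negative cells of both libraries, among them Col1a1, Col1a2, Col3a1, the 3 type V chains, Col6a1, Col6a2 and Col6a3. Col3a1 was at 10373 against 17517 CPM in control and 5643 against 13804 CPM in D-CAN. Col4a1 was at 103 against 493 CPM in control and 154 against 1113 CPM in D-CAN, and Col4a2 at 29.5 against 377 CPM and 78.9 against 660 CPM. Col6a3 was at 350 against 918 CPM and 284 against 1248 CPM, Col5a3 at 129 against 718 CPM and 47.4 against 602 CPM, and Col15a1 at 18.4 against 134 CPM and 3.95 against 446 CPM. Col4a5 was higher in positive cells, at 36.9 against 18.2 CPM and 35.5 against 25.9 CPM, from few UMIs. Col14a1 was also higher in positive cells, at 778 against 401 CPM and 592 against 97.0 CPM, with log2 ratios of 0.95 (0.55 to 1.38) and 2.61 (1.84 to 3.48).

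The D-CAN ratios were read on each side of the split. Those of the type IV pair had overlapping intervals, with Col4a1 at 1.18 (0.79 to 1.57) in negative and 0.58 (-0.16 to 1.33) in positive cells and Col4a2 at 0.81 (0.34 to 1.29) and 1.42 (0.17 to 2.81). Col1a1 had a ratio of -1.07 (-1.18 to -0.95) in negative and -0.20 (-0.32 to -0.08) in positive cells, while Col3a1 had -0.34 (-0.43 to -0.26) in negative and -0.88 (-0.97 to -0.79) in positive cells.

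**Figure D5:**
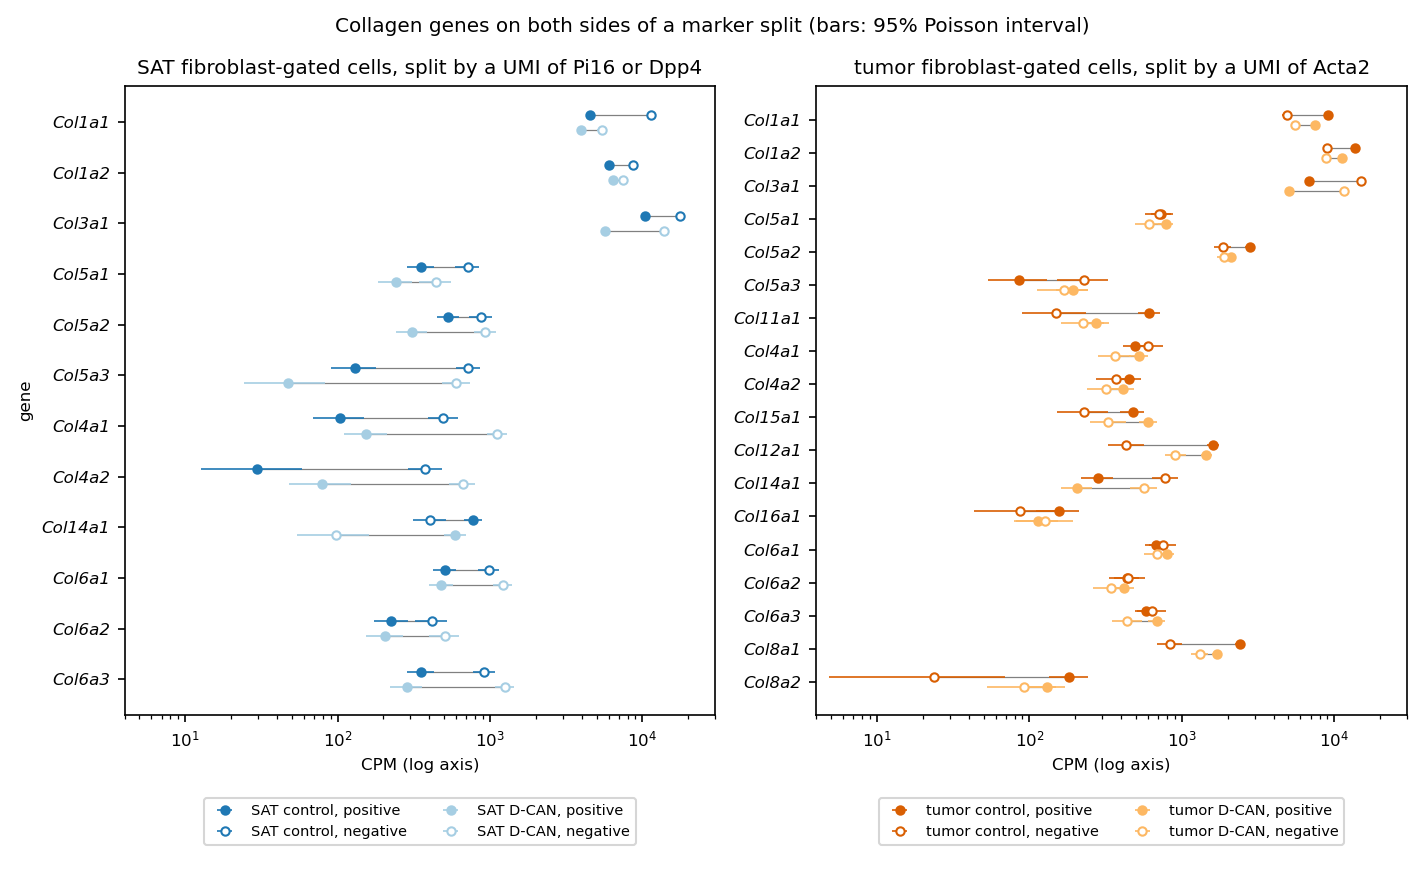
CPM (log axis) of collagen genes on both sides of a split of fibroblast-gated cells, filled points with and open points without a UMI of the splitting genes, per library with exact 95% Poisson intervals; left, SAT by Pi16 or Dpp4, right, tumor by Acta2. In SAT the open points of Col4a1, Col4a2, Col5a3 and Col6a3 lie to the right of the filled ones in both libraries and those of Col14a1 to the left, and in tumor Col3a1 and Col14a1 are higher in open and Col8a1 and Col12a1 in filled points.

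Tumor fibroblast-gated cells were split by a UMI of Acta2, the smooth muscle actin of myofibroblasts, into 52 and 39 cells in control and 36 and 26 in D-CAN. Col3a1 was at 6795 CPM in positive against 14865 CPM in negative cells of control and 5059 against 11588 CPM in D-CAN, and Col14a1 at 280 against 778 CPM and 206 against 566 CPM. Col8a1 was at 2404 against 833 CPM in control and 1700 against 1306 CPM in D-CAN, and Col12a1 at 1603 against 432 CPM and 1445 against 907 CPM. Col11a1 was at 611 against 149 CPM in control, but at 273 against 225 CPM in D-CAN, with an interval of the ratio that includes 0 (-0.27 to 0.85). Type III and the FACIT chain of type XIV thus lay on one side and type VIII and XII on the other in both tumor libraries.

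Endothelial-gated cells were split by Gpihbp1, a capillary gene. In SAT Col4a1 was at 737 CPM in 288 positive against 317 CPM in 182 negative cells of control, and at 772 against 193 CPM in 125 and 29 cells of D-CAN. In tumor control the sides were close, at 2538 and 2972 CPM (log2 ratio -0.23, -0.55 to 0.11), and in tumor D-CAN positive cells were at 2736 CPM against 1198 CPM in 17 negative cells. Even the lower of the tumor values was above those of SAT.

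The 8 members with 20 to 99 UMIs were spread over several classes. Col4a4, Col6a5 and Col6a6 had most of their UMIs in fibroblast-gated cells, and Col10a1 in tumor mural-gated cells. Col11a2 had 35 of 48 tumor UMIs in cancer-gated and 24 of 29 SAT UMIs in leukocyte-gated cells. Col17a1, a transmembrane collagen of hemidesmosomes, had 7 of 8 tumor UMIs in cancer-gated and 11 of 18 SAT UMIs in endothelial-gated cells. Col23a1, also a transmembrane collagen, had 7 of 10 tumor UMIs in fibroblast-gated and 27 of 46 SAT UMIs in leukocyte-gated cells. The cancer gate held 76.7% of all tumor UMIs and the leukocyte gate 71.3% of all SAT UMIs, so the counts of Col11a2 and Col23a1 in them do not set these gates apart. Col11a2, Col17a1, Col20a1 and Col23a1 were under the 20-UMI filter in every stromal gate, so the tissues were not compared for them. Col4a4, Col6a5 and Col6a6 were tested in fibroblast-gated cells and not called, and Col10a1 was called in mural-gated cells, as given above.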

How the data were processed

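Single-cell RNA was measured in 4 libraries, 1 per group. The authors aligned reads with Cell Ranger (version 3.1.0 per the labels, with header 3.0.2 in the SAT D-CAN matrix; STAR 2.6, mm10, Ensembl 93) and deposited a matrix of UMI counts for the called cells of each library, not normalized; totals were 6667064 to 17996284. No column was left unused (0). Treatment labels were taken as given.

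Cells with at least 200 genes were kept, which left 2761, 1487, 2841 and 1897 cells, and gated as the report states. No doublet caller was run. Cells whose highest marker count was under 2 times that of another class stayed outside the gates. Gated cells could thus hold some markers of another class. No marker UMI of another stromal class was found in 11 of 60 and 4 of 27 tumor mural-gated cells (control and D-CAN). For tumor fibroblast-gated cells this held for 52 of 91 and 19 of 62. UMIs were summed per library and class. Tumor and SAT were compared with edgeR 4.0.16 (R 4.3.3; TMM, glmQLFit, glmQLFTest) over genes with at least 20 UMIs, without covariates, and p-values were adjusted over all of them. On simulated counts with 4-fold changes, 66 of 99 changed genes were called in fibroblast-gated, 60 of 97 in mural-gated and 58 of 91 in endothelial-gated cells; of 2-fold changes 6 of 95, 10 of 94 and 25 of 95. CPM, exact 95% Poisson and binomial intervals and thinning to 1000 UMIs used Python 3.11.15, numpy 2.4.6, scipy 1.17.1 and pandas 2.3.3. Cells with fewer UMIs than the thinning depth were left out of thinned shares. A count of 0 was set at 3 for folds and bounds, and folds against it leave out the counting error of the tumor count. Intervals and bounds cover counting error only.

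Named genes are all members, those with at least 100 UMIs with values and the rest by class; of the list of collagen-processing genes, called genes were eligible, at most 10 per class by fold. Members, lists and tests were chosen with earlier results of these data known. Gene positions are from GENCODE vM21 (GRCm38), promoter windows from RefSeq (GRCm38.p6). The alternatives were DESeq2 1.42.0, other scalings and filters, treatment as a covariate, leaving out each library, other gates, graph clusters made in Seurat 5.3.0 without collagen genes, cell filters and other thinning depths. Gated cells with no marker UMI of another stromal class were added after seeing the data.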

Additional observations from a re-analysis of the deposited data

Results flagged for a closer look

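For 3 genes the log2 ratio of D-CAN over control had opposite signs in the same class of both tissues, with counting intervals that leave out 0 on both sides. The difference between the tissues was not tested, since each ratio rests on 1 library per group. Col1a1 was at 0.82 (0.66 to 0.99) in tumor mural-gated cells and at -2.10 (-3.16 to -1.12) in those of SAT, where 31 and 13 UMIs were counted. Col3a1 was at 0.87 (0.67 to 1.07) in tumor and at -1.07 (-1.70 to -0.44) in SAT mural-gated cells, and 1 cell of SAT control and 1 of SAT D-CAN held 61.2% and 42.9% of its UMIs there. Col8a1 was at 1.29 (0.04 to 2.64) in tumor endothelial-gated cells, from 9 and 17 UMIs, and at -0.76 (-1.31 to -0.24) in those of SAT.

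Collagen UMIs were also found in cells that entered no comparison because they passed no gate. They made up 19.992% of the collagen UMIs of tumor control, 18.6% of tumor D-CAN, 9.67% of SAT control and 4.09% of SAT D-CAN. Most lay in cells with markers of more than 1 class, 4367 UMIs in 81 cells, 5398 in 70 cells, 1642 in 204 cells and 496 in 30 cells. In these the fibrillar genes took 70.0%, 59.9%, 58.8% and 24.4% of the collagen UMIs and basement membrane genes 13.4%, 24.6%, 22.7% and 56.9%.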

How the results depend on the processing

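No call between tumor and SAT changed sign under the alternatives run. With each library left out in turn, the number of members called ranged from 5 to 13 in fibroblast-gated, 14 to 17 in mural-gated and 4 to 5 in endothelial-gated cells; it was 5 in fibroblast-gated cells without tumor control and also without tumor D-CAN, where Col1a2, Col5a3, Col15a1 and Col18a1 were lost, and 13 without SAT D-CAN, where Col3a1, Col4a1, Col4a2, Col6a6 and Col14a1 were gained and Col1a2 lost. A tissue left with 1 library was assumed to vary like the other. In cells with no marker UMI of another stromal class the mural count was 6. All 6 were genes that reached 20 UMIs in tumor alone, where 85.7% of such genes were higher. With no filter beyond 1 UMI the endothelial count was 7. DESeq2 called 6 members in fibroblast-gated cells, all of them higher in tumor, and 14 in mural-gated cells. For DESeq2 and the fit with treatment as a covariate no share over all genes is given. Their counts show only how the calls depend on the fit. In fibroblast-gated cells with no marker UMI of another stromal class, 14 members reached 20 UMIs in each tissue. Of these 1 was called higher and 1 lower, where 1.92% and 2.85% of such genes were. Of the single-gene results between the tissues, 1099 kept their side of the threshold, 26 gained and 36 lost it. In cells with no other stromal marker UMI the D-CAN over control log2 value was -0.40 for fibrillar genes in tumor and -0.19 in SAT fibroblast-gated cells, and -0.49 and 0.68 for Col4a1 plus Col4a2 in tumor endothelial-gated and mural-gated cells; in SAT endothelial-gated cells it went from 0.07 to -0.01, both with intervals that include 0. There the ratios of single genes turned to 0.21 for Col3a1, 0.51 for Col5a2 and 0.47 for Col5a3 in SAT fibroblast-gated and to 1.27 for Col18a1 in tumor mural-gated cells. In graph clusters the log2 value was -0.36 for fibrillar genes in SAT fibroblasts and 0.21 for Col4a1 plus Col4a2 in SAT endothelial cells. For this pair in tumor endothelial cells it was -0.09 (-0.20 to 0.03) in graph clusters. With a gate that allowed fewer markers of another class it was -0.10 (-0.23 to 0.03). At 50 UMIs, 1 of 15 members was past 2-fold in tumor mural-gated cells (17 of 1173 genes). In tumor endothelial-gated cells 0 of 4 were (53 of 1475 genes). In SAT fibroblast-gated cells 2 of 16 were (127 of 2329 genes). In the SAT mural and endothelial gates 1 of 7 (58 of 745 genes) and 1 of 7 (76 of 5306 genes) were. The causes were not tested. Graph clusters gave no mural comparison, since no SAT cluster was named mural. With treatment as a covariate, which pairs the control and the D-CAN libraries of both tissues and leaves 1 residual degree of freedom, 9, 17 and 6 members were called; Col1a2 was lost and Col6a6 gained in fibroblast-gated cells, and Col3a1 and Col13a1 were gained in endothelial-gated cells. Depth limits most the SAT control library and the mural gates of SAT.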

Other observations

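Col14a1, the type XIV chain, was also found in leukocyte-gated cells of tumor. There it was at 55.9 CPM (42.5 to 72.1) in control and 34.9 CPM (25.0 to 47.6) in D-CAN, from 59 and 40 UMIs in 50 of 548 and 35 of 390 cells, and this gate held 19.5% of its tumor UMIs. Among leukocyte-gated cells with at least 1000 UMIs, thinned to 1000, 4.78% and 4.08% had a UMI of it, against 9.12% and 8.97% of all without thinning. No cell held more than 7.50% of these UMIs. Col3a1, which had 3638 and 3874 UMIs to 171 and 174 of Col14a1 in tumor fibroblast-gated cells, had 21 and 13 UMIs in the leukocyte gate, where Col1a2 had 76 and 19. The part of fibroblast RNA in these counts was not tested. In SAT leukocyte-gated cells Col14a1 was at 2.01 and 0.358 CPM, from 9 and 2 UMIs.

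Col6a3 stood apart from the other type VI chains in the leukocyte gate of SAT, with 25 and 22 UMIs, or 5.58 and 3.94 CPM. The ratio of Col6a1 to Col6a2 UMIs in fibroblast-gated cells was 1.60 and 1.93 in tumor and 2.32 and 2.38 in SAT. Cells gated as Schwann cells, 11 in each SAT library and 2 in tumor control, gave 0.729%, 0.237% and 0.663% of their UMIs to collagens.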
